A study of Mus musculus with 2 samples.

Results

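The enzymes of glycolysis and the pentose phosphate pathway, the carriers that move glucose, lactate and pyruvate, and 1 subunit of pyruvate dehydrogenase were followed in differentiating mouse erythroid cells. They were chosen by symbol: 35 symbols were looked up in the names of the deposited tables, and all 35 were found among 55536 mouse gene identifiers, of which 22028 are protein-coding. The cells were G1E-ER4, an immortalized line derived from Gata1-null mouse cells that carries GATA1 activity back as a fusion protein switched on by estradiol. All of them had been kept in 17beta-estradiol at 10 nM over 24 h, which sets off erythroid differentiation in this line. RNA selected for poly(A) tails was sequenced from 2 libraries, numbered 1 and 2 in the labels, which form 1 group, so levels are described below and no condition is compared with another. Both libraries carry the same biosample record and no label speaks of separate cultures, so what separates them may be technical spread.

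The libraries differ in depth. Replicate 1 held 71485617 expected counts (the authors' estimated fragments per gene) and replicate 2 held 14121747, a ratio of 5.06, and 3 counts correspond to 0.0420 and 0.212 CPM, counts scaled to library size. Levels are given as TPM, an abundance per transcript length scaled to a fixed total, or as CPM, which has no correction for length. All 6 erythroid markers fixed for the check (Gata1, Klf1, Alas2, Slc4a1, Hba-a1 and Hbb-bs) were detected, and their summed level was 169472 TPM in replicate 1 and 70519 TPM in replicate 2. Because the line was made to carry GATA1 back, Gata1 reads (2890 and 2661 TPM) may come from the introduced fusion. Their detection is therefore no check on cell identity. None of the 10 granulocyte and monocyte markers, 4 skeletal muscle markers, 3 liver markers and 3 fibroblast markers was detected at 1 TPM or more in both libraries, and each of these lists summed to 0.22 TPM or less in either library. Among the 4 platelet and megakaryocyte markers, Pf4 and Ppbp had 0 counts and Gp9 and Itga2b brought the sum to 5.04 and 6.52 TPM.

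Glycolysis splits glucose into pyruvate in 10 enzyme steps, and lactate dehydrogenase then turns pyruvate into lactate and restores NAD+. Mature red cells have no mitochondria, so they depend on glycolysis for ATP, on the pentose phosphate pathway for the NADPH that keeps glutathione reduced, and on a side branch through bisphosphoglycerate mutase for 2,3-bisphosphoglycerate, which lowers the oxygen affinity of hemoglobin. Many steps are served by several isozymes encoded by separate genes or by alternative exons of 1 gene, and tissues differ in which they use. Of the pyruvate kinases, Pklr encodes the red cell and liver forms from separate promoters, while Pkm encodes the M1 and M2 forms by choice between a pair of mutually exclusive exons.

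The sequences that tell these forms apart are shown for reference. The isoform results below come from estimates per whole transcript, not from reads counted on these stretches. The M2 exon of Pkm, used by the transcript Pkm-201, lies at chr9:59675568-59675734 on the plus strand (mm10, GENCODE M21), and the M1 exon, used by Pkm-202, lies at chr9:59675029-59675195. Both are coding exons of 167 bases, they agree at 103 positions (61.7%), and capitals mark the 64 positions at which they differ.
Pkm M2 exon: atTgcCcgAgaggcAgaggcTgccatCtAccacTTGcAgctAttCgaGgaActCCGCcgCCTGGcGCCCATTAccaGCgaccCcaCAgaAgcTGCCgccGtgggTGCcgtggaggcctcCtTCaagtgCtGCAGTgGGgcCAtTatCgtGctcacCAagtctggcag
Pkm M1 exon: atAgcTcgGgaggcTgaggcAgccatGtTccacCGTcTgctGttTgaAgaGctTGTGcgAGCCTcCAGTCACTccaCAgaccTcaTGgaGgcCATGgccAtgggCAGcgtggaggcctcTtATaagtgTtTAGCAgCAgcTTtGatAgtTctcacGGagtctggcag

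Hk1 has alternative first exons on the minus strand of chromosome 10. In GENCODE M21 the transcript Hk1-201 starts at position 62358362 with 2 short coding exons of 27 and 48 bases, and Hk1-202 starts 17820 bases downstream, at 62340542, with an exon that ends in 63 coding bases. The coding bases ahead of the shared exons are shown with the start codon in capitals. The stretch of Hk1-202 is the start of the somatic form, whose N terminus binds the outer mitochondrial membrane, and Hk1-201 has other codons in its place.
Hk1-201: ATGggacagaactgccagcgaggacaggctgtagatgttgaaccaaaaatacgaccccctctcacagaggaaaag
Hk1-202: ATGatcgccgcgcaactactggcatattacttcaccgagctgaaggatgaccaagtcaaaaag

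Pklr lies on the plus strand of chromosome 3, and the first exons of Pklr-201 and Pklr-202 start 430 bases apart, at 89136142 and 89136572. Both are followed by the same 183-base exon; the first exon of Pklr-201 has 100 coding bases and that of Pklr-202 has 7. The upstream start is the one that textbooks assign to the red cell form and the downstream start to the liver form. The bases ahead of each start are printed from the RefSeq promoter table (GRCm38.p6, the same assembly as mm10), chr3:89135892-89136141 and chr3:89136373-89136571, with matches to AGATAA (the site that GATA factors bind) or CCACCC (a site of the erythroid KLF1 type), on either strand, in capitals.
Pklr upstream promoter: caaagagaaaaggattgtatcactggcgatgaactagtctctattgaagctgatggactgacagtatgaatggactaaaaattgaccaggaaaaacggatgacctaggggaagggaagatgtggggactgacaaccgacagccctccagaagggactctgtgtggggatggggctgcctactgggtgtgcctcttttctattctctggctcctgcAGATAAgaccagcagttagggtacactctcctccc
Pklr downstream promoter: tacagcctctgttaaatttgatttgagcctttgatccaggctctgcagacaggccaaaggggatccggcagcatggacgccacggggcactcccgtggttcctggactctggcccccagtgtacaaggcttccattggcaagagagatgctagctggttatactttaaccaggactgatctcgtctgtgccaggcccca

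The upstream stretch holds 1 AGATAA, which begins 35 bases before the start at chr3:89136107-89136112, and the downstream stretch holds neither motif. Over all 32851 promoter windows of 300 bases in that table, 11.2% hold AGATAA on either strand and 31.5% hold CCACCC. Of 47 windows that belong to 33 of the 35 genes, 5 (10.6%) held AGATAA, in Eno3, Pfkm and Pklr, and 17 (36.2%) held CCACCC. The letters ACGTG, the core that hypoxia-inducible factors recognise, were in 17 of the 47 windows (36.2%) against 19.6% of all windows. These windows belong to 15 genes: Aldoa, Aldoc, G6pdx, Gapdh, Hk1, Hk2, Hk3, Ldha, Pfkm, Pgam1, Pgk1, Pkm, Slc16a1, Slc16a3 and Slc2a1. CACGTG, which contains ACGTG, was in 3 of the 47 (6.38%) against 7.15% of all. These are matches of letters in a window, not sites shown to be bound.

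Most of the pathway was present. In bulk RNA a low level in all cells and expression in few cells cannot be told apart. At 1 TPM or more in both libraries, 31 of the 35 genes were detected, 24 of them at 10 TPM or more and 13 at 100 TPM or more in both. Over all protein-coding genes 33.1% were detected in both. The 4 genes that missed were Hk3 and Ldhb, which were listed at 0 TPM in both libraries, and Hk2 and Bpgm, which passed in replicate 1 but not in replicate 2. Over the 31 detected genes the median level was 143 TPM in replicate 1 and 65.6 TPM in replicate 2, against 20.2 and 15.2 TPM over the 7297 protein-coding genes detected in both. The genes of glycolysis and lactate dehydrogenase (19 genes, 16 detected) summed to 3.39% of all TPM in replicate 1 and 1.18% in replicate 2, and without Gapdh to 1.53% and 0.807%. The 7 pentose phosphate genes were all detected and summed to 0.221% and 0.122%.

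**Figure D1:**
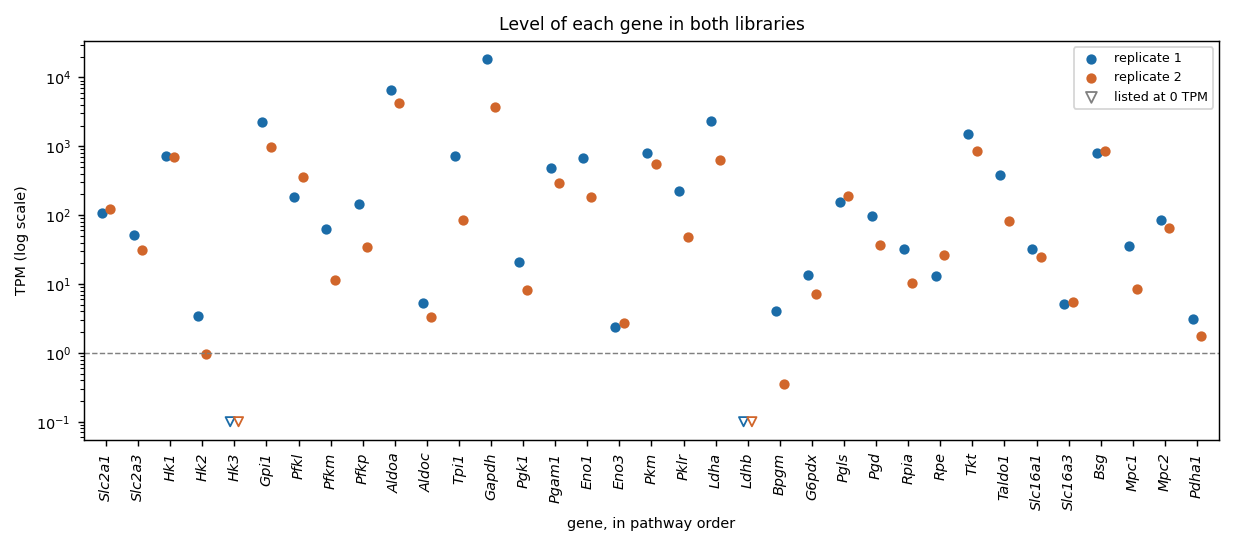
Level of each of the 35 genes in replicate 1 (blue) and replicate 2 (orange), as TPM on a log axis, in pathway order, with open triangles for genes listed at 0 and a dashed line at the detection threshold of 1 TPM. Gapdh and Aldoa stand highest, Hk3 and Ldhb are at 0 in both libraries, and Bpgm lies above the line in replicate 1 only.

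Glucose enters through carriers of the SLC2 family. Slc2a1, which encodes GLUT1, had 109 and 124 TPM in replicates 1 and 2, with a mean of 117 ± 11.0 TPM (SD, n = 2). Slc2a3, which encodes the high-affinity carrier GLUT3, was at 51.4 and 31.5 TPM. Slc2a1 was the higher of the pair in both libraries, with 67.9% and 79.8% of their summed TPM (mean 73.9 ± 8.37%, SD, n = 2). That order held for the genes but not throughout for their main coding transcripts. Slc2a1-201 was at 69.1 and 17.7 TPM and Slc2a3-201 at 48.4 and 31.2 TPM, so Slc2a1-201 was the higher in replicate 1 only. In the table made from reads Slc2a1-201 was the lower in both libraries (30.5 and 2.65 against 33.3 and 7.33 TPM). Of the other carriers on the list, Slc2a8, which encodes the mostly intracellular GLUT8, was at 54.2 TPM in replicate 1 and at 300.0 TPM in replicate 2 (2750 and 1754 expected counts), while Slc2a2, Slc2a4, Slc2a5, Slc2a6 and Slc2a9 each stayed below 0.3 TPM. Per kilobase of the longest coding transcript, Slc2a8 stood at 18.2 and 58.9 CPM and Slc2a1 at 91.9 and 75.0 CPM, so Slc2a1 was above Slc2a8 on that scale in both libraries.

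Hexokinase, which traps glucose as glucose 6-phosphate, was Hk1. Hk1 (chr10:62268855-62379908) had 715 and 688 TPM in replicates 1 and 2, with a mean of 701 ± 19.2 TPM (SD, n = 2), among the closest pairs of values in the pathway. Hk2, the isozyme of muscle and fat, was at 3.39 and 0.96 TPM (1319 and 64 expected counts). Hk3, known from granulocytes and monocytes, had 0 counts in both libraries. The Hk1 share of the summed hexokinase TPM was 99.5% and 99.9%. With Hk3 set to a floor of 3 counts per library, the TPM of Hk1 was 33343-fold higher in replicate 1 and 5528-fold higher in replicate 2. The authors' posterior mean estimates gave a smaller gap, with Hk3 at 0.15 and 0.79 TPM beside 707 and 649 TPM for Hk1. Hkdc1, another hexokinase gene on the list, had 0 counts, and of the granulocyte and monocyte markers Cebpe, Csf3r, Csf1r, Itgam, S100a8, S100a9 and Ly6g had 0 counts too. Adpgk, which phosphorylates glucose with ADP, was at 2.25 and 7.50 TPM.

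Within Hk1 most of the signal was assigned to the upstream first exon. Hk1-201 had 143868 expected counts in replicate 1 and 23406 in replicate 2, and Hk1-202, which starts with the mitochondrial-binding codons printed above, had 31461 and 7347. Of the counts of this pair, 82.1% were on Hk1-201 in replicate 1 (95% Wilson interval 81.9 to 82.2%) and 76.1% in replicate 2 (75.6 to 76.6%). Such intervals cover counting error only, not the assignment of reads that transcripts share. The share of Hk1-201 in the TPM of the pair was 84.4% and 79.0%, and it was 91.0% and 87.4% in the transcript table made from reads. The deposited tables give no counts per exon, and the 75 bases that set Hk1-201 apart are a small part of its 3639 bases, so most of these counts come from exons that both share.

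Glucose phosphate isomerase, encoded by Gpi1, converts glucose 6-phosphate to fructose 6-phosphate. Its level was 2272 TPM in replicate 1 and 973 TPM in replicate 2, over 2-fold apart. Little of this was on its full-length coding transcript: Gpi1-201 (2884 bases) had 8.90% of the TPM of the gene in replicate 1 and 5.92% in replicate 2, or 202 and 57.6 TPM. The leading transcript was Gpi1-206, annotated for nonsense-mediated decay, in replicate 1 and Gpi1-204, a retained intron of 419 bases, in replicate 2. In counts, which are not divided by length, protein-coding transcripts held 31.9% and 22.8%. The M4 release gave 1156 and 495 TPM for the gene.

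Phosphofructokinase, the step that commits fructose 6-phosphate to glycolysis, was the family whose shares lay furthest apart between the libraries. Pfkl, the liver-type subunit, was at 186 TPM in replicate 1 and at 360 TPM in replicate 2. Pfkm, the muscle-type subunit, was at 63.0 and 11.5 TPM, and Pfkp, the platelet-type subunit, at 143 and 34.6 TPM. Pfkl was therefore the higher in replicate 2 and both others the lower. Pfkl held 47.4% of the summed TPM in replicate 1 and 88.7% in replicate 2 (mean 68.0 ± 29.2%, SD, n = 2), and was the most abundant of the 3 in both. Most of the Pfkp level lay on Pfkp-206, a retained-intron transcript of 931 bases (86.8% and 90.2% of the TPM), whereas coding transcripts of Pfkp held 2.84% and 2.81%. Of the Pfkm TPM in replicate 1, 34.6% lay on Pfkm-203, a coding transcript of 438 bases. Pfkp shares 748 exon bases with Pitrm1 on the opposite strand, which had 4571 and 430 expected counts, and use of strand in counting was not given in the sources used here. On counts per kilobase of the longest coding transcript, Pfkl held 66.8% and 94.1%. None of the 4 skeletal muscle markers was detected, with 0 counts for Myh4 and Tnnt3.

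The kinases that make fructose 2,6-bisphosphate, the activator of phosphofructokinase, were led by Pfkfb4, at 30.0 TPM in replicate 1 and at 11.1 TPM in replicate 2. Pfkfb2 followed at 10.2 and 2.56 TPM and Pfkfb1 at 0.58 and 1.59 TPM. Pfkfb3 had 0 and 3 counts.

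Aldolase was Aldoa, at 6626 TPM in replicate 1 and at 4209 TPM in replicate 2, the highest level after Gapdh on the mean of both libraries and the highest in replicate 2. It held 99.9% of the summed aldolase TPM in each, with Aldoc, the form of brain, at 5.22 and 3.34 TPM. Its leading transcript differed: Aldoa-201, which codes for the protein, held 75.0% of the TPM in replicate 1, and Aldoa-209, a retained intron of 895 bases, held 47.9% in replicate 2. Another identifier that carries the symbol Aldoa (ENSMUSG00000114515.2, chr7:126800790-126809108) was kept apart and had 2.30 and 3.58 TPM. The leading transcript of Aldoc was a coding one in replicate 1 (59.1% on Aldoc-202) and a processed transcript in replicate 2 (55.0% on Aldoc-206), on 447 and 44 counts.

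Triose phosphate isomerase, encoded by Tpi1, interconverts the 2 products of aldolase. It was at 722 TPM in replicate 1 and at 85.5 TPM in replicate 2, 8.44-fold apart, and the gap in CPM was 9.84-fold (95% interval of counting error 9.34 to 10.4). The M4 release gave 2337 and 160.1 TPM, 14.6-fold apart, and the rescaled table made from reads gave 666 and 148 TPM, 4.50-fold apart, so the direction held and the size did not. A retained-intron transcript, Tpi1-204, held 75.5% and 93.4% of the TPM. The table made from reads placed 99.5% of the Tpi1 level of replicate 1 on coding transcripts against 24.1% in the main table, and 19.9% against 3.40% in replicate 2.

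Gapdh, which encodes the dehydrogenase that makes 1,3-bisphosphoglycerate and NADH, was at 18561 TPM in replicate 1 and at 3745 TPM in replicate 2 (673931 and 24056 expected counts), 4.96-fold apart. It was the most abundant of the 35 genes in replicate 1 and ranked below Aldoa in replicate 2. Of its TPM, 73.2% and 81.0% lay on Gapdh-206, a retained-intron transcript of 565 bases, so its level depends on the length given to that fragment. On counts per kilobase of the longest coding transcript it stood at 6639 and 1200 CPM, beside 5349 and 2572 CPM for Aldoa. Close copies matter here: 171 pseudogenes matched the longest coding transcript of Gapdh at 90% identity or more over at least 200 bases and took 38201 and 1897 counts, 5.36% and 7.31% of the counts of gene and copies together. The pseudogenes Gm10359 and Gm12671 took most of these. The sperm gene Gapdhs had 0 counts.

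Pgk1 encodes phosphoglycerate kinase, the first step of glycolysis that makes ATP, and its level was far below those of the enzymes on either side. It had 2501 expected counts in replicate 1 and 169 in replicate 2, or 19.2 and 6.56 CPM per kilobase of the longest coding transcript, and its TPM was 2.57-fold lower in replicate 2. On the scale per kilobase, Pgam1, the next step, was 23.6 times as abundant in replicate 1 and 36.3 times in replicate 2, and Gapdh, the step before, 346 and 183 times. The M4 release gave 21.9 and 9.01 TPM and the table made from reads 24.4 and 8.18 TPM, so the low level was there in each deposited table. The 4 pseudogene copies of Pgk1 had 48.5 and 0 counts and the testis gene Pgk2 had 0, so few reads were counted on these copies.

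Pgam1 encodes phosphoglycerate mutase and was at 488 TPM in replicate 1 and at 293 TPM in replicate 2, with nearly all of it on the coding transcript Pgam1-201 in each. The muscle gene Pgam2 had 5 and 0 counts, and Pgam5, a mitochondrial phosphatase despite its name, was at 7.83 and 3.68 TPM.

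Enolase was Eno1, at 667 TPM in replicate 1 and at 183 TPM in replicate 2, 3.65-fold apart. Eno3, the muscle isozyme, was at 2.38 and 2.71 TPM, so Eno1 held 99.6% and 98.5% of the pair. Eno1b, annotated as a protein-coding gene and 99.5% identical to Eno1 over 1736 aligned bases, was at 151 and 42.8 TPM (17441 and 855 counts), and reads of the pair cannot be told apart with certainty. With it and 6 further copies, 18.5% and 24.8% of the counts of Eno1 and its copies lay outside Eno1. The neuronal gene Eno2 had 0 counts. The leading transcript of Eno3 was coding in replicate 1 (Eno3-201, 56.1%) and a retained intron in replicate 2 (Eno3-208, 60.9%), on 212 and 25 counts.

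Pyruvate kinase was mostly Pkm. Pkm (chr9:59656368-59679375) was at 800.0 TPM in replicate 1 and at 546 TPM in replicate 2, and Pklr (chr3:89136142-89146784) at 225 and 47.5 TPM, 4.73-fold apart. Pkm held 78.1% and 92.0% of the summed TPM (mean 85.0 ± 9.83%, SD, n = 2) and 91.2% and 95.8% on counts per kilobase of the longest coding transcript. Pkm was thus the higher gene in both libraries on both scales.

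Nearly all Pkm was assigned to the transcript of the M2 form. Pkm-201, with the M2 exon, had 125685 expected counts in replicate 1 and 15007 in replicate 2, and Pkm-202, with the M1 exon, had 2410 and 82. The M2 share of these counts was 98.1% (95% Wilson interval 98.0 to 98.2%) and 99.5% (99.3 to 99.6%). In TPM the share was 97.7% and 99.4%, in the M4 release 96.4% and 99.2%, and in the table made from reads 98.8% and 98.3%. Each table and each library put M2 above 96%. These are estimates per whole transcript, and Pkm-201 and Pkm-202 also differ in start and in length (2432 and 2041 bases).

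Pklr showed transcripts from both starts. Pklr-201, which begins at the upstream start behind the AGATAA letters printed above, had 8895 expected counts in replicate 1 and 621 in replicate 2, and Pklr-202 had 3840 and 105. The share of Pklr-201 was 69.8% (69.0 to 70.6%, 95% Wilson interval) and 85.5% (82.8 to 87.9%). The table made from reads gave 55.8% and 65.5% of the TPM of this pair, and the M4 release 68.5% and 72.6%. The liver markers Alb and Ttr had 0 counts in both libraries. The leading transcript by TPM was, however, a short processed one in each library: Pklr-205, which also begins upstream, held 64.3% in replicate 1, and Pklr-204, which begins downstream, held 44.8% in replicate 2, where coding transcripts held 55.2%. With these and Pklr-203, a coding transcript of 349 bases that also begins downstream, included, the upstream group held 85.0% of the TPM in replicate 1 and 39.8% in replicate 2, but 73.0% and 78.4% of the counts, so the order of the starts in replicate 2 depends on the unit.

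**Figure D2:**
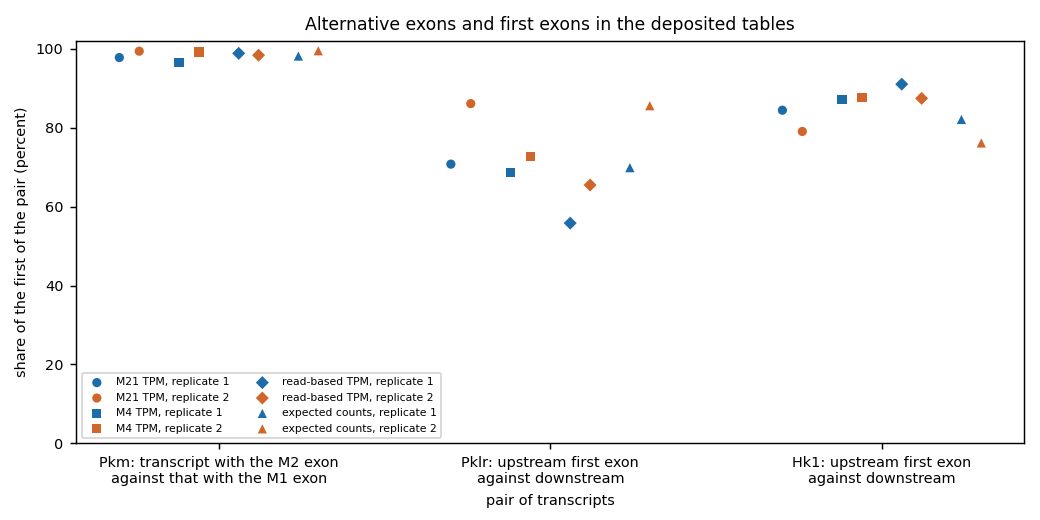
Share of the former transcript of each pair, in percent, for Pkm-201 against Pkm-202, Pklr-201 against Pklr-202 and Hk1-201 against Hk1-202, in replicate 1 (blue) and replicate 2 (orange); the marker shape gives the table or unit. The Pkm shares lie at 96.4% or above in each table, while those of Pklr spread from 55.8% to 86.1%.

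Lactate dehydrogenase was Ldha alone. Ldha (chr7:46841475-46855627) was at 2355 TPM in replicate 1 and at 622 TPM in replicate 2, 3.79-fold apart, with 117341 and 5488 expected counts. Ldhb, the heart-type subunit, had 0 counts in both. With Ldhb set to a floor of 3 counts per library, the TPM of Ldha was 39590-fold higher in replicate 1 and 1837-fold higher in replicate 2. The authors' posterior mean estimates gave a smaller gap, with Ldhb at 0.1 and 0.53 TPM beside 2325 and 589 TPM for Ldha. The testis gene Ldhc and the D-lactate gene Ldhd had 0 counts as well. The leading transcript was Ldha-206, a coding transcript of 645 bases, in replicate 1 (46.2%) and Ldha-211, a retained intron of 740 bases, in replicate 2 (60.4%), where replicate 1 had 0.549% on it. The table made from reads put 99.9% and 99.5% of Ldha on coding transcripts.

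**Figure D3:**
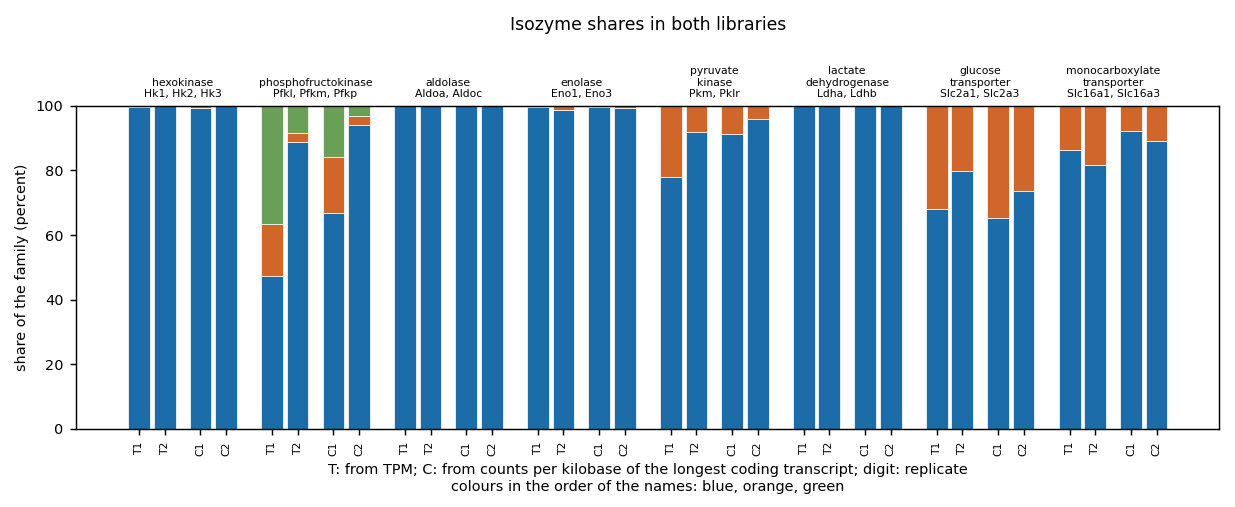
Share of each isozyme in its family, in percent, from TPM (T) and from counts per kilobase of the longest coding transcript (C), for replicates 1 and 2. Hexokinase, aldolase, enolase and lactate dehydrogenase are nearly all 1 colour, whereas Pfkl takes from 47.4% to 94.1% of phosphofructokinase.

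Bpgm, the mutase that makes 2,3-bisphosphoglycerate, was among the lowest of the pathway. Bpgm (chr6:34476207-34505613) was at 4.06 TPM in replicate 1 and at 0.35 TPM in replicate 2, on 601 and 9 expected counts. In CPM the gap was 13.2-fold (95% interval of counting error 6.90 to 29.0). The table made from reads, rescaled over nuclear protein-coding genes, gave 4.64 and 2.39 TPM, 1.94-fold apart, so the size of the gap depended on the table. Nearly all of it was on the coding transcript Bpgm-201 (97.3% of the TPM in replicate 1 and 9 of 9 counts in replicate 2). Pgam1, which encodes the mutase of the main path, was 120 times as abundant as Bpgm in TPM in replicate 1 and 838 times in replicate 2. The latter ratio rests on 9 counts of Bpgm. In the rescaled table made from reads Pgam1 was at 469 and 289 TPM beside 4.64 and 2.39 TPM for Bpgm, so the ratios lay closer together there.

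The oxidative arm of the pentose phosphate pathway, which yields NADPH, was low at its entry. G6pdx encodes glucose 6-phosphate dehydrogenase, the entry enzyme, and was at 13.5 TPM in replicate 1 and at 7.04 TPM in replicate 2. Pgls, the lactonase of the next step, was at 153 and 191 TPM, and Pgd, the dehydrogenase that yields more NADPH, at 97.0 and 37.2 TPM. The order from high to low was Pgls, Pgd and G6pdx in both libraries. G6pdx shares 418 exon bases with Ikbkg on the opposite strand, which had 959 and 90 counts beside 1675 and 198 for G6pdx. The leading transcript of Pgls was a coding one in each library, Pgls-201 in replicate 1 (89.5%) and Pgls-204 in replicate 2 (50.1%). H6pd, the enzyme of the endoplasmic reticulum with the same activity, was at 0.43 and 1.32 TPM.

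The non-oxidative arm, which exchanges sugar phosphates with glycolysis, was led by Tkt. Tkt, the transketolase, was at 1512 TPM in replicate 1 and at 867 TPM in replicate 2, the fifth highest mean of the 35 genes and the third on counts per kilobase of the longest coding transcript. Taldo1, the transaldolase, was at 388 and 82.7 TPM, 4.69-fold apart. Tkt was 112 times as abundant as G6pdx in TPM in replicate 1 and 123 times in replicate 2. The same ratio for Taldo1 was 28.7 and 11.7, so the gap to G6pdx was close in both libraries for Tkt and not for Taldo1. Rpia, the ribose phosphate isomerase, was at 32.7 and 10.3 TPM. Rpe, the epimerase, was the only one of the 35 over 2-fold higher in replicate 2 in TPM, at 12.9 against 26.5 TPM. In CPM it was 1.15-fold higher there. Its leading transcript passed from the coding Rpe-201 (65.4%) in replicate 1 to Rpe-204, a decay target of 781 bases, in replicate 2 (65.6%). The table made from reads put 44.7% of Rpe on coding transcripts in replicate 1 and 16.8% in replicate 2. Tktl1 and Tktl2 had 0 counts and Shpk, the sedoheptulose kinase, was at 2.82 and 1.18 TPM.

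Lactate leaves cells through monocarboxylate carriers that need a chaperone to reach the membrane. Slc16a1, which encodes MCT1, was at 31.9 TPM in replicate 1 and at 24.7 TPM in replicate 2, and Slc16a3, which encodes MCT4, at 5.09 and 5.56 TPM. Slc16a1 held 86.3% and 81.6% of their sum. Bsg, which encodes their chaperone basigin, was at 802 and 851 TPM (mean 827 ± 34.6 TPM, SD, n = 2), 25.1 and 34.5 times the TPM of Slc16a1. Emb, the other chaperone, and the carriers Slc16a7 and Slc16a8 had 0 counts.

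Pyruvate enters mitochondria through the MPC1 and MPC2 carrier. Mpc1 was at 36.0 TPM in replicate 1 and at 8.33 TPM in replicate 2 (1039 and 36 counts), and Mpc2 at 84.7 and 65.6 TPM. The retained-intron transcript Mpc1-207 of 383 bases held 68.9% and 83.2% of Mpc1, whereas the table made from reads put 94.7% and 86.9% of Mpc1 on coding transcripts. In Mpc2 the coding Mpc2-201 led in replicate 1 (89.7%) and the retained-intron Mpc2-202 in replicate 2 (49.3%), but the table made from reads put 99.7% of Mpc2 in replicate 2 on coding transcripts.

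Pyruvate dehydrogenase, which turns pyruvate into acetyl-CoA, was uneven across its subunits. Pdha1, the catalytic alpha subunit, was at 3.09 TPM in replicate 1 and at 1.76 TPM in replicate 2. Of the other subunits, Pdhb was at 89.6 and 11.6 TPM, Dlat at 22.3 and 64.8 TPM, Dld at 7.13 and 0.42 TPM and Pdhx at 2.44 and 2.84 TPM. Among the kinases that switch the complex off, Pdk1 was at 66.4 and 114 TPM, Pdk2 at 69.3 and 47.1 TPM and Pdk3 at 20.9 and 27.7 TPM, and Pdk4 had 0 counts. Pdp2, a phosphatase that switches it on, was at 2.81 and 1.40 TPM, and Pdp1 at 1.30 and 0.42 TPM. The 3 detected kinases each stood above Pdha1 and both phosphatases in each library.

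The list of other isozymes and regulators held 47 genes, of which 18 were detected in both libraries and 17 had 0 counts in both. Besides those given above, Pgm1 and Pgm2, phosphoglucomutases that link glycogen and ribose phosphates to glycolysis, had 11.6 and 5.31 TPM and 26.6 and 15.3 TPM. Gpd2, the mitochondrial glycerol phosphate dehydrogenase, was at 1.63 and 1.34 TPM. Hif1a, the hypoxia-inducible factor that can drive many of these genes, was at 19.0 and 15.4 TPM. Fbp1 and Fbp2, which run the reverse step in gluconeogenesis, had 0 counts.

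The libraries differed mostly in 1 direction. A mean of 50 or more expected counts was reached by 33 of the 35 genes, and the TPM of 15 of these (45.5%) was over 2-fold lower in replicate 2, against 35.4% of all 9028 genes past that count. Over 2-fold higher was 1 (3.03%), against 15.5% of all. The genes over 2-fold lower were 10 of glycolysis and lactate dehydrogenase (Hk2, Gpi1, Pfkm, Pfkp, Tpi1, Gapdh, Pgk1, Eno1, Pklr and Ldha), 3 of the pentose phosphate pathway (Pgd, Rpia and Taldo1), Bpgm and Mpc1. The median log2 ratio of TPM + 1, replicate 2 over replicate 1, was -0.80 over the 33 genes at 1 TPM or more in either library and -0.31 over 8488 protein-coding genes chosen the same way. By role the median was -1.22 over 17 genes of glycolysis, -0.85 over 7 of the pentose phosphate pathway and -0.36 over the other 9. On TPM, CPM, the M4 release and the rescaled table made from reads alike, 21 of the 33 genes (63.6%) were lower in replicate 2, against 48.4% of 8459 nuclear protein-coding genes past the same count, and 2 (6.06%), Pfkl and Rpe, were higher, against 27.1%. The other 10, Hk1, Aldoa, Pgk1, Eno3, Pgls, Slc2a1, Slc16a3, Bsg, Mpc2 and Pdha1, changed direction between these scales. The depth of the libraries and the summed level of the erythroid markers moved the same way as these differences. Most of that sum was Hba-a1 (67200 and 30385 TPM) and Hbb-bs (97719 and 34786 TPM). Alas2 (304 and 69.0 TPM) and Slc4a1 (725 and 484 TPM) were lower in replicate 2 too. Gata1 differed little (2890 and 2661 TPM), and Klf1 was higher in replicate 2 (634 and 2134 TPM). The part of depth and of the markers in these differences was not tested.

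**Figure D4:**
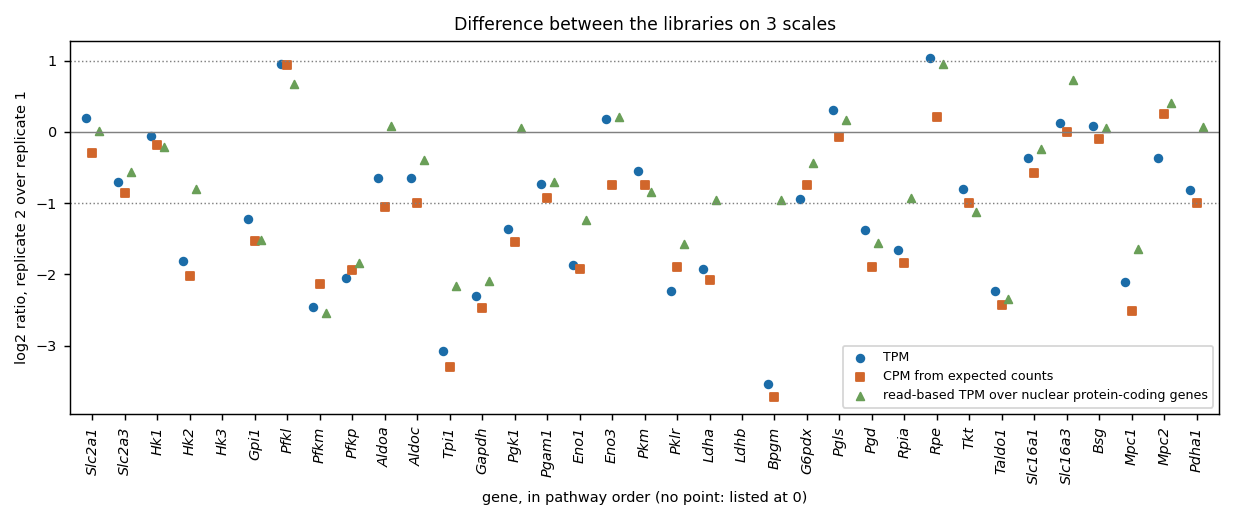
Log2 ratio of replicate 2 over replicate 1 for each gene, from TPM (circles), CPM (squares) and the table made from reads rescaled over nuclear protein-coding genes (triangles); dotted lines mark 2-fold and Hk3 and Ldhb have no point. Tpi1, Taldo1, Pfkm, Pfkp and Gapdh lie below the lower line on each scale, and Bpgm lies below it on TPM and CPM only.

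The annotated type of transcript differed between genes and libraries. In 18 of the 31 detected genes the leading transcript was protein-coding in both libraries, in 6 (Gpi1, Pfkp, Tpi1, Gapdh, Pklr and Mpc1) it was not protein-coding in either, and in 7 (Aldoa, Aldoc, Eno3, Ldha, Rpe, Slc2a1 and Mpc2) it was not in replicate 2 alone. The same transcript led in both libraries in 21 genes. The same counts over all detected protein-coding genes are not given here, so these show no trait particular to the 31. Slc2a1 was a case of a near-constant gene level over a changed makeup: the coding Slc2a1-201 had 69.1 TPM in replicate 1 and 17.7 TPM in replicate 2, and the decay target Slc2a1-204 had 38.2 and 106 TPM. The table made from reads put 37.3% and 10.4% of Slc2a1 on coding transcripts, less than the rest of the gene in both libraries. Hk1, Pfkm, Pgam1, Pkm, Rpia, Tkt, Taldo1, Pgls, Slc16a1, Slc16a3, Bsg and Pdha1 had over 95% of their TPM on transcripts annotated as protein-coding in both libraries. Such a transcript need not be the full-length one. In replicate 1, Pfkm-203, of 438 bases, held 34.6% of the Pfkm TPM but 5.35% of its counts.

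**Figure D5:**
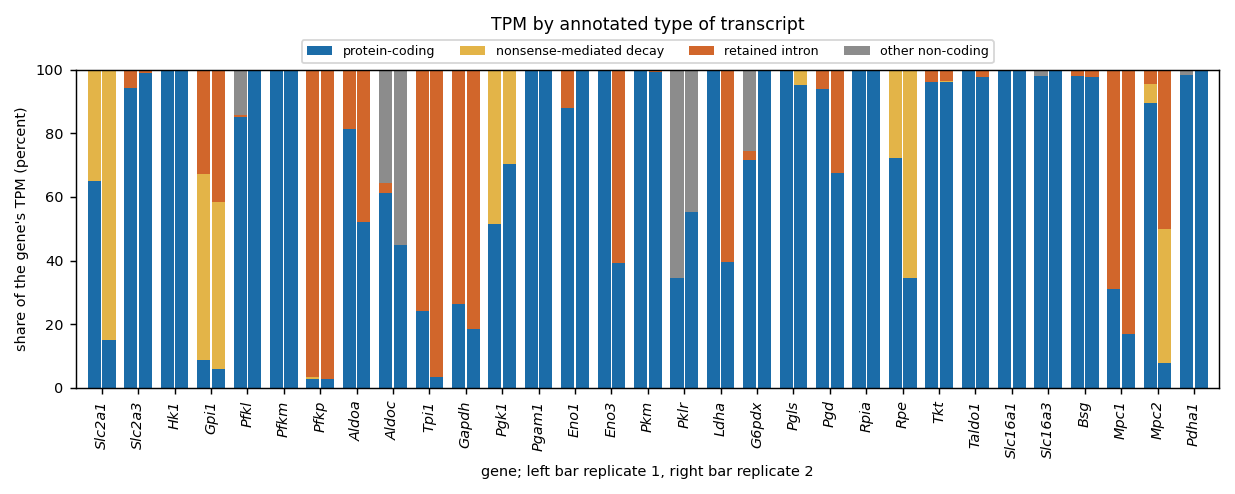
Share of the TPM of each detected gene by annotated type of transcript, in percent, with replicate 1 as the left bar and replicate 2 as the right bar; Hk2, Hk3, Ldhb and Bpgm are not shown because they were not detected in both. In this table Pfkp, Tpi1, Gapdh and Mpc1 are mostly retained intron in both libraries, while Aldoa, Ldha, Slc2a1, Rpe and Mpc2 change between them. The table made from reads puts most of Mpc1, Ldha and Mpc2 on coding transcripts in both libraries, and 99.5% of Tpi1 in replicate 1. It puts 37.3% and 10.4% of Slc2a1 and 44.7% and 16.8% of Rpe on them in replicates 1 and 2.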

How the data were processed

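The members and lists were chosen with earlier results of these data known. Per the deposited descriptions, reads were placed on mm10, and gene and transcript tables were made for GENCODE M21 and M4, plus an M21 transcript table made from the reads. Which tools did this was not given in the sources used here. Expected counts, as deposited, are fragments per gene or transcript estimated by the authors without normalization. The TPM values, per the file headers, are the authors' abundances scaled to 1 fixed total per table, as maximum likelihood (used here) and posterior mean estimates. Per the file headers, a percent column gives a transcript as part of its gene; shares were computed here from TPM. The deposited bounds of the posterior TPM, of signal type, were not used for any value printed, and the effective lengths only for the floors of Hk3 and Ldhb.

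Detection means 1 TPM or more in both replicates, and 2-fold counts used genes averaging 50 or more expected counts. Median log2 ratios used a pseudocount of 1; folds and 2-fold counts used none. Every member is named; of 47 other genes, all with a mean of 1 TPM or more and some below it are given. Copies were found with blastn 2.17.0. Exons, starts and coordinates are from GENCODE M21, all of whose 55536 identifiers matched; promoters are from RefSeq. The counting step was tested on simulated counts that held no spread between libraries beyond counting error. That tests the step and not the differences printed here. With 1 group there was no test between conditions. Alternatives included edgeR 4.0.16 TMM and DESeq2 1.42.0 size factors on rounded expected counts. Python 3.11.15, pandas 2.3.3 and R 4.3.3 were used.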

Additional observations from a re-analysis of the deposited data

How the results depend on the processing

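No paired analysis was possible because there was 1 group. The number of genes detected stayed from 28 (at 5 TPM) to 32 under the other tables, thresholds and scalings, and was 31 in replicate 2 and 33 in replicate 1 alone. The 15 genes over 2-fold lower became 30 in the unscaled table made from reads, where 72.6% of all genes were lower, and were from 11 to 18 under the other alternatives. The 1 gene higher became 2 with the M4 release and with the median of all genes set to 0, and 0 with posterior means, CPM, TPM + 1 without a count filter, and the table made from reads, rescaled or not. Pfkl took the place of Rpe under TMM and DESeq2 scaling. With a count filter, from 4.54% (unscaled table made from reads) to 23.6% (median set to 0) of all genes were higher. The median log2 ratio was from -1.001 to -0.41, except -1.84 in the table made from reads (a shift over 0.5 counted as moved). It was below that of all protein-coding genes by 0.38 to 0.59 under each setting with a filter on level. With no filter the gap was 0.73, but there the median over all 22028 protein-coding genes was 0. Their median level was 0.01 TPM in replicate 1 and 0.02 TPM in replicate 2. Among isozyme shares, Aldoa was 99.92% from the M4 release, 99.91% from posterior means, 99.94% from the table made from reads, 99.92% from counts and 99.96% from counts per kilobase. Ldha was 99.95% from posterior means and 99.99% from the table made from reads. From counts Slc2a1 was 65.3% and Slc16a1 90.8%, and from counts per kilobase Slc16a1 was 90.6%. The pentose phosphate sum was 0.0924% in the table made from reads and 0.407% of counts. The share of Pklr-201 was 60.6% and that of Hk1-201 89.2% in the table made from reads, and Hk1-201 was 87.4% in M4; the cause was not tested. Of the 35 mean levels, those that moved by over 1 SD of the replicates were 4 with M4, 5 with posterior means, 2 with rescaled TPM and 17 in the table made from reads.

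Without replicate 1 or without replicate 2, the shares ranged from 99.5% to 99.9% for Hk1, 47.4% to 88.7% for Pfkl, 99.92% to 99.92% for Aldoa, 98.5% to 99.6% for Eno1, 78.1% to 92.0% for Pkm, 67.9% to 79.8% for Slc2a1, 81.6% to 86.3% for Slc16a1, 97.7% to 99.4% for the Pkm M2 exon, 70.7% to 86.1% for Pklr-201 and 79.0% to 84.4% for Hk1-201, and Ldha stayed at 100%. The glycolysis sum ranged from 1.18% to 3.39% and the pentose phosphate sum from 0.122% to 0.221%. The alternatives with counts per kilobase, with the trend on GC content removed and with the rescaled table made from reads were chosen after seeing the data. The depth of replicate 2 limits Bpgm, Eno3, Mpc1, Aldoc, Pdha1 and Hk2, which had from 9 to 64 counts there.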
